A study of Mus musculus with 8 samples.

Results

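Granins are acidic secretory proteins of neurons and endocrine cells that help build dense-core vesicles and are themselves cut into peptides. The set described here holds the granins and the proteins that cut prohormones: Vgf, Scg2, Scg3, Scg5, Chga, Chgb, Pcsk1n, Pcsk1, Pcsk2 and Cpe. Members were taken by gene symbol. All 10 symbols were found among the 14765 genes of the deposited count table, and all 10 were among the 13911 genes that passed the low-count filter.

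Bulk poly(A) RNA was sequenced from PrL tissue of C57 mice, PrL being read here as the prelimbic part of the medial prefrontal cortex from the topic of the series. There were 4 Sham libraries, the control group, and 4 SNI libraries, named for what pain research calls spared nerve injury, in which some branches of the sciatic nerve are cut to give lasting pain. All 8 libraries carry the same genotype label, and no age, sex or time after surgery is stated there. Nor is it stated that the libraries came from different mice, so p-values speak only of the spread among these libraries, part of which may be technical.

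Prohormones enter the regulated secretory pathway as inactive chains. In the maturing dense-core vesicle the convertases encoded by Pcsk1 and Pcsk2 cut them after pairs of basic residues, and carboxypeptidase E, encoded by Cpe, then trims those residues from the new ends. The granin-like protein proSAAS, encoded by Pcsk1n, can inhibit the Pcsk1 product, and the Scg5 product is the chaperone that the Pcsk2 product needs to become active. Vgf and Scg2 are known as genes that neuronal activity and neurotrophins induce, through cyclic AMP response elements (CREs) near their start sites. Peptides cut from Vgf, among them TLQP-21, have been studied in pain and mood.

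Library totals were 14735602 to 19602487 counts. The members' counts ran from 578 to 59011 per library, so counting error was small beside the spread between libraries. Cortical excitatory neuron markers were present (6 of 6 in the table), with summed levels of 4764 to 5469 CPM (counts scaled to a common library size) in sham and 3560 to 5023 CPM in SNI. Striatal markers (8 of 8 in the table) summed to 169 to 345 CPM in sham and 296 to 671 CPM in SNI, and were highest in SNI replicates 2 and 4. Astrocyte markers (5 of 5) summed to 862 to 1137 CPM in sham and 948 to 1296 CPM in SNI, and oligodendrocyte markers (4 of 4) to 2359 to 5131 and 3295 to 5765 CPM. Microglia markers (4 of 4, with P2ry12 and Tmem119 called higher) summed to 187 to 243 CPM in sham and 226 to 314 CPM in SNI. Blood and endothelial markers (4 of 4, 0 called) summed to 145 to 186 and 162 to 240 CPM. Choroid plexus and ependymal markers (3 of 4 in the table, with Ttr called higher) were scarce and did not overlap between groups, at 4.99 to 6.94 CPM in sham and 10.04 to 14.2 CPM in SNI. Of all tested genes, 5.64% had every SNI value above every sham value, and 2.15% were called higher. Of 9 hypothalamic, septal and thalamic markers 6 were in the table, at 44.8 to 78.8 CPM in sham and 53.0 to 73.2 CPM in SNI. Prkcd was called higher, and Oxt, Hcrt and Pmch had no row. The part of these markers' cells in the members' values was not tested. The striatal marker value, a mean of centred log2 CPM, was used as a covariate in 1 alternative fit. It ran partly with group, from -1.15 to 0.20 in sham and from -0.23 to 1.23 in SNI. A call lost in that fit therefore cannot tell striatal content from the group difference. In bulk tissue, fewer cells of a type and less RNA per cell cannot be told apart.

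CRE sequences near the start sites are shown first. The members were taken by symbol and not by CRE, but Scg2 was known to be induced through one, as given above. The share of members with a CRE is therefore a description and not independent evidence. Windows from 250 bases before to 50 bases after the annotated start (RefSeq, GRCm38.p6) were matched for 8 members; Vgf and Cpe had no matched entry. The palindrome TGACGTCA was found in 3 of the 8, Scg2, Chgb and Pcsk1, against 1.79% of 32851 windows of all genes. In each line the gene strand is read 5′ to 3′, and the capitals mark the CRE or its half-site.
Scg2: gctgagccggTGACGTCAgcgtggaatg
Chgb: ggctgctccgTGACGTCAgggctgagcg
Pcsk1: caggtagatcTGACGTCAagagatggct
Pcsk1, second site: ttcgtcgattTGACGtgtaaacact
Chga: ggcggtcctaTGACGtaatttcctg
Scg5: aggaggtaaaTGACGttcatagggg

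Positions here count from the RefSeq start. GENCODE M21, used below for gene spans, places the starts of Scg2 and Chgb further upstream, so that their CREs lie inside the GENCODE spans. The full CREs begin 68 bases before the RefSeq start in Scg2 (minus strand, chr1:79440077-79440104 with flanks), 72 before it in Chgb (plus strand, chr2:132781560-132781587) and 78 before it in Pcsk1 (plus strand, chr13:75089769-75089796). The half-site TGACG was present on either strand in 7 of the 8 members, all but Pcsk1n, and in 20.8% of all windows. That search counts a full CRE as well, since the half-site lies inside it. The half-site shown for Chga begins 44 bases before the start (plus strand, chr12:102554887-102554911), and that for Scg5 begins 175 bases before it (minus strand, chr2:113829252-113829276). Not shown are further Scg5 half-sites, beginning at positions 20 and 41 from the start. Those of Pcsk2 and Scg3, beginning 34 and 30 bases before the start, are not shown either. The AP-1 letters TGANTCA were found in Pcsk1n alone (7.81% of all windows), and the TATA letters TATAAA in Chga alone (13.6%). The GC box GGGCGG was found in 6 of the 8 members and in 35.7% of windows, both strands searched for each motif. These matches describe the letters in the windows and not binding.

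The members spanned a wide range of levels. For comparison between genes, CPM were divided by the length of all annotated exons (GENCODE M21, GRCm38), giving CPM per kb. In sham, Cpe was highest at 960 ± 45.8 CPM per kb and Pcsk1 lowest at 9.96 ± 1.68 CPM per kb (SD, n = 4 libraries), 96.4-fold apart. Pcsk1n came next to the top, at 446 ± 9.24 CPM per kb. Between these extremes the sham order was Chgb (164), Vgf (142), Scg5 (140), Scg3 (117), Scg2 (93.9), Chga (71.4) and Pcsk2 (63.2 CPM per kb). The sham values of Vgf and Scg5 overlapped, as did those of Chga and Pcsk2. The other neighbours in the sham order did not overlap.

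In SNI the order by mean CPM per kb differed in the places of Scg5, Chgb, Scg3 and Vgf. Vgf stood at place 6, at 86.4 ± 16.1 CPM per kb (SD, n = 4 libraries), and its values overlapped those of Scg2. Scg5 stood at place 3, at 210 ± 90.2 CPM per kb (SD, n = 4 libraries), overlapping both neighbours in the order. Summed over the members, the level was 5886 ± 112 CPM in the sham libraries and 6000 ± 131 CPM in the SNI libraries (SD, n = 4 each). That is 0.580% to 0.620% of a library's scaled counts, close to the same share in every library. Cpe alone held 2506 CPM in sham and 2775 CPM in SNI. The 7 granin family members, Pcsk1n included, summed to 2824 ± 107 CPM in sham and 2723 ± 253 CPM in SNI. The 3 enzymes summed to 3062 ± 150 and 3277 ± 157 CPM (SD, n = 4 each). The groups overlapped in both sums, and neither was tested.

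**Figure D1:**
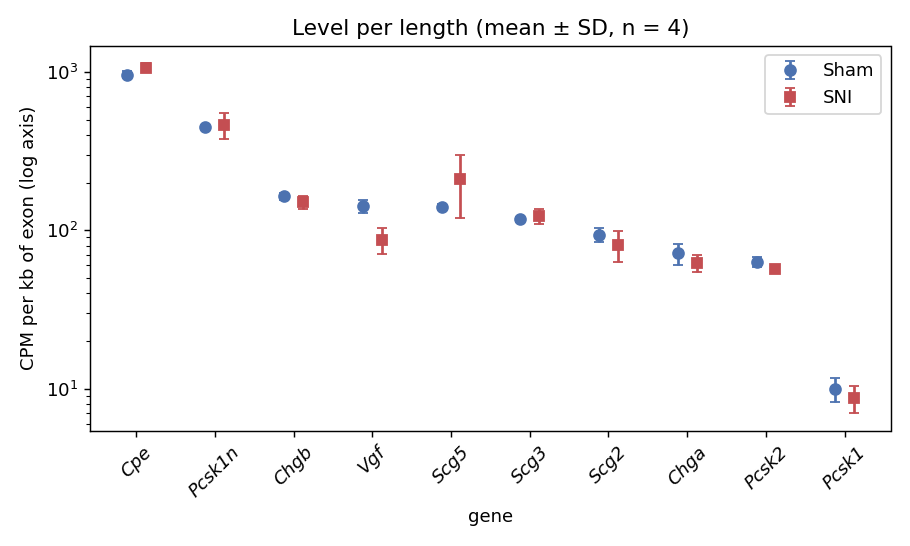
CPM per kb of exon (log axis) for the 10 genes, ordered by their sham mean, with circles for Sham and squares for SNI (mean ± SD, n = 4 libraries). Cpe and Pcsk1n lie highest and Pcsk1 lowest in both groups, and the SNI mean of Vgf is 86.4 against 142 CPM per kb in Sham.

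The comparison of SNI with sham asks whether this secretory machinery differed in the cortex of injured mice. Of the 10 members 1 fell, Vgf, and 0 rose, at a false discovery rate (FDR) of 0.05 in edgeR's quasi-likelihood test. Over all 13911 genes tested, 5.02% were called (2.87% lower and 2.15% higher in SNI). The share among the members, 1 of 10, can be read only against that background, and with so few members it does not set them apart. The members' median log2 fold change was -0.13, and that of all tested genes was 0.01. The scaled values of the 2 groups did not overlap for Vgf (all SNI lower) and Scg5 (all SNI higher), and such separation held for 12.7% of all tested genes (7.02% with SNI lower and 5.64% with SNI higher).

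Among the granins, Vgf, the precursor of several neuropeptides, was lower in SNI. In sham replicates 1 to 4 it had 442, 449, 438 and 362 CPM. In SNI replicates 1 to 4 it had 267, 226, 214 and 321 CPM. Every SNI library lay below every sham library, and the library nearest to the other group was replicate 4 on both sides. The sham mean was 423 ± 40.5 CPM and the SNI mean 257 ± 48.0 CPM (SD, n = 4 libraries each). The log2 fold change was -0.72 ± 0.117 (SE), or 1.65-fold lower, with an edgeR adjusted p of 0.00431, and Vgf ranked 64 of all genes by p. Vgf lies on chromosome 5 from 137026392 to 137033351 (plus strand, GRCm38), and no other annotated gene overlaps it.

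The Vgf difference was called whichever single library was left out, with log2 fold changes of -0.84 to -0.64. Cortical excitatory neuron markers, as a mean of centred log2 CPM, were lowest in SNI replicates 2 and 3 (-0.33 and -0.22), the libraries with the least Vgf. In SNI replicates 1 and 4 they were 0.113 and 0.023, within the sham values of 0.016 to 0.213. Vgf was below every sham library in each SNI library, as given above. In SNI replicates 2 and 3 astrocyte markers had their highest SNI values (0.19 and 0.34). The part of either cell type in the Vgf difference was not tested. Without SNI replicates 2 and 3 Vgf had a log2 fold change of -0.53 (edgeR adjusted p = 0.0255). Without SNI replicates 2 and 4, highest in striatal markers, it was -0.81 (edgeR adjusted p = 0.0049). With the striatal marker value as a covariate the log2 fold change was -0.75 and the call ended (edgeR adjusted p = 0.112). In that fit 9 genes in all were called. As that value ran partly with group, the lost call cannot tell the 2 apart.

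**Figure D2:**
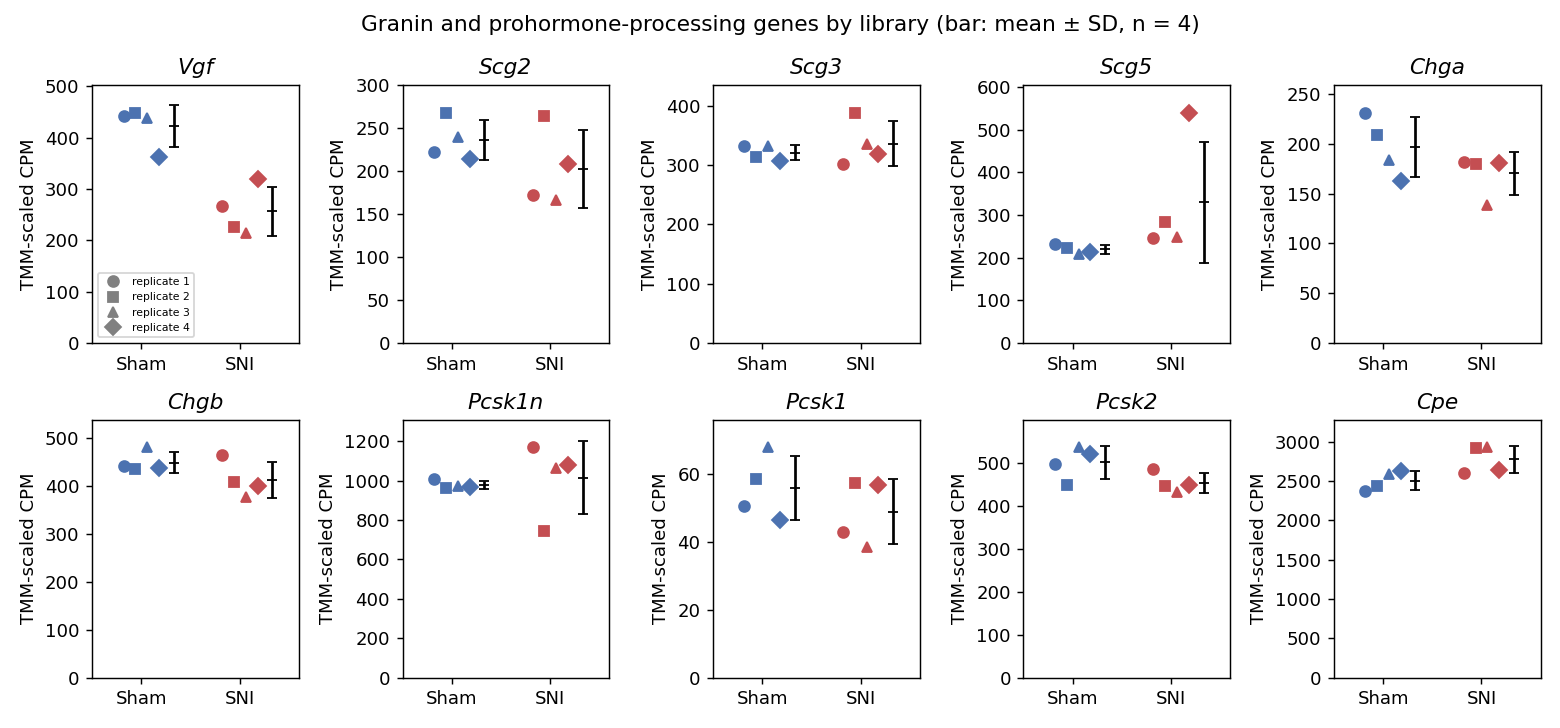
TMM-scaled CPM of each gene in every library, 1 panel per gene, each axis starting at 0, with marker shapes for replicates 1 to 4 and black bars for mean ± SD (n = 4 libraries). The Vgf panel has no overlap between groups (362 or more in Sham, 321 or less in SNI), and in the Scg5 panel SNI replicate 4 stands at 540 CPM.

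Scg5, the chaperone of the Pcsk2 product, had 1 library far above the rest. Sham replicates 1 to 4 had 231, 224, 210 and 213 CPM, and SNI replicates 1 to 4 had 246, 284, 248 and 540 CPM. All SNI values lay above all sham values, replicate 4 by far and the other 3 by less. The separation therefore did not rest on replicate 4. The log2 fold change was 0.59 ± 0.262 (SE) and did not pass (edgeR adjusted p = 0.256). Without SNI replicate 4 it was 0.24 (edgeR adjusted p = 0.134). The coefficient of variation in SNI was 42.9%, as high or higher in 3.64% of tested genes, against 4.47% in sham. SNI replicate 4 also had the highest striatal marker value (1.23, with 1.10 in SNI replicate 2). With that value as a covariate the Scg5 log2 fold change was 0.12 (edgeR adjusted p = 0.942). The striatal value ran partly with group, so this fit cannot separate the 2.

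Scg5 lies on chromosome 2 from 113776362 to 113829121 (minus strand, GRCm38), with no overlapping gene. Its measured neighbours were looked at after the Scg5 values were seen. Grem1, a BMP antagonist, had 1.55, 0.991, 1.33 and 1.75 CPM in SNI replicates 1 to 4. These rest on 20 to 29 counts, too few to show whether Grem1 shared the Scg5 excess. Arhgap11a, a regulator of small GTPases, had 3.72, 4.26, 6.06 and 4.88 CPM, highest in replicate 3. Further out, Fmn1 was highest in SNI replicate 4, at 19.3 CPM, with SNI replicate 2 next at 17.4 CPM. Scg5 had 540 and 284 CPM in those libraries. Ryr3, Gjd2 and Aqr were not highest in SNI replicate 4. The cause of the Scg5 excess was not tested.

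Scg2, the precursor of secretoneurin, had overlapping groups. Its values were 223, 268, 240 and 214 CPM in sham replicates 1 to 4 and 172, 265, 166 and 209 CPM in SNI replicates 1 to 4. SNI replicate 2 stood with the sham libraries, and the other 3 SNI libraries lay below all of them. The log2 fold change of -0.22 ± 0.132 (SE) did not pass (edgeR adjusted p = 0.371), and its 95% interval ran from -0.54 to 0.11. Without SNI replicates 2 and 4 it was -0.48 and passed (edgeR adjusted p = 0.0256). Scg2 lies on chromosome 1 from 79434669 to 79440120 (minus strand).

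The chromogranins, which drive the packing of dense-core vesicles, differed by little. Chga (chromosome 12) had 231, 209, 184 and 163 CPM in sham replicates 1 to 4 and 182, 180, 138 and 181 CPM in SNI replicates 1 to 4. The SNI values of Chga lay inside the sham range except replicate 3, which was lowest of all 8. Its log2 fold change was -0.21 (edgeR adjusted p = 0.308). Chgb (chromosome 2) had 441, 435, 481 and 438 CPM in sham and 464, 409, 378 and 399 CPM in SNI, again in replicate order. SNI replicate 1 was above 3 sham libraries and the other SNI libraries were below all of them. Its log2 fold change was -0.12 (edgeR adjusted p = 0.419), with a 95% interval of -0.32 to 0.08.

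Scg3, which binds chromogranin A at the vesicle membrane, was close between groups. It ranged from 308 to 332 CPM in sham and from 302 to 389 CPM in SNI, where replicate 2 was highest. The log2 fold change was 0.07 (edgeR adjusted p = 0.693) and was -0.010 without SNI replicate 2. Pcsk1n, on chromosome X, had 1009, 965, 974 and 969 CPM in sham replicates 1 to 4 and 1169, 746, 1065 and 1078 CPM in SNI replicates 1 to 4. The sham values were among the tightest of all genes (a coefficient of variation of 2.07%, as low or lower in 2.11% of genes), and in SNI replicate 2 lay far below the other 3. The Pcsk1n log2 fold change was 0.05 (edgeR adjusted p = 0.838), and -0.025 without SNI replicate 1. An exon of Pcsk1n overlaps the gene Eras on the opposite strand. No source used here states whether strand was used in counting, and Eras itself was not among the genes tested.

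Of the cutting enzymes, none of the 3 passed the test. Pcsk1, the scarcest member, had 50.6, 58.6, 67.7 and 46.3 CPM in sham replicates 1 to 4 and 42.8, 57.4, 38.5 and 56.8 CPM in SNI replicates 1 to 4. The groups overlapped, with 2 SNI libraries inside the sham range and 2 below it. Its log2 fold change was -0.19 ± 0.146 (SE, edgeR adjusted p = 0.492), with a 95% interval of -0.55 to 0.17. Without SNI replicates 2 and 4 it was -0.46 (edgeR adjusted p = 0.109), and without Sham replicate 3 it was -0.08. Pcsk2 ranged from 447 to 535 CPM in sham and from 432 to 485 CPM in SNI, a log2 fold change of -0.14 (edgeR adjusted p = 0.323). Antisense transcripts Pcsk2os1 and Pcsk2os2 overlap Pcsk2 exons, so its count is uncertain without stranded counting.

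Cpe, the most abundant member, had 2376, 2434, 2591 and 2622 CPM in sham replicates 1 to 4 and 2604, 2923, 2929 and 2644 CPM in SNI replicates 1 to 4. SNI replicates 2 and 3 stood above all other libraries, and these were the SNI libraries with the highest astrocyte marker values; the part of those cells in the Cpe level was not tested. The log2 fold change of 0.15 ± 0.0819 (SE) did not pass (edgeR adjusted p = 0.32), with a 95% interval of -0.05 to 0.35. For the 9 members that did not pass, a missed threshold does not show equal levels. Apart from Scg5, their 95% intervals reached no lower than -0.55 and no higher than 0.35 on the log2 scale.

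**Figure D3:**
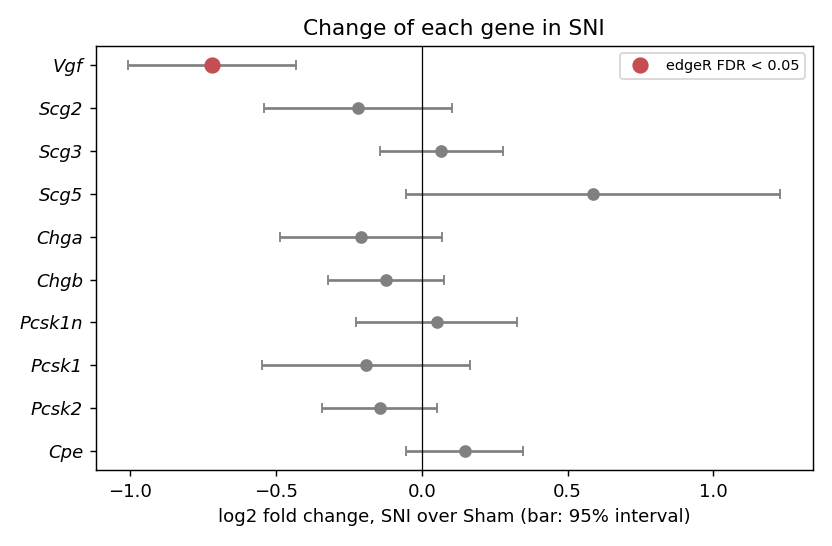
log2 fold change of SNI over Sham for each gene, with bars for the 95% interval (edgeR standard error, 6 degrees of freedom); the red point passed FDR 0.05. Only the Vgf interval (-1.01 to -0.43) leaves out 0, and the Scg5 interval is the widest (-0.05 to 1.23).

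Ratios between partner genes within a library need no scaling and were tested by exact two-sided permutation of the libraries (70 assignments, smallest possible p = 0.0286). For the chaperone and its enzyme, the log2 ratio of Scg5 to Pcsk2 counts was -1.11, -0.999, -1.35 and -1.29 in sham replicates 1 to 4 and -0.98, -0.65, -0.80 and 0.27 in SNI replicates 1 to 4. The groups did not overlap, with a difference of 0.65 (exact permutation p = 0.0286, or 0.0857 adjusted over the 3 ratios). Without SNI replicate 4 the difference was 0.38. For the inhibitor and its enzyme, the log2 ratio of Pcsk1n to Pcsk1 had a sham mean of 4.15 ± 0.25 and an SNI mean of 4.38 ± 0.52 (SD, n = 4 each, exact permutation p = 0.457, adjusted 0.657), and its difference of 0.23 became 0.46 without SNI replicate 2 and 0.09 without SNI replicate 3. The ratio of the convertases, Pcsk1 to Pcsk2, had a sham mean of -3.18 ± 0.26 and an SNI mean of -3.23 ± 0.30 (SD, n = 4 each, exact permutation p = 0.657, adjusted 0.657). With 3 ratios, one that alone separates the groups cannot have an adjusted p below 0.0857, so it could not pass in this design.

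The members did not move as a block across libraries. Over the 45 pairs the median Pearson r of log2 CPM across the 8 libraries was 0.10, with 3 pairs above 0.7 and 4 below -0.7. These are descriptions over 8 libraries that share the group difference, the scaling and the tissue makeup. The closest pair was Scg2 and Pcsk1 (r = 0.83, and 0.80 for deviations from the group means), both with a full CRE in the sequences above. Chgb, the other member with that CRE, had r = 0.24 with Scg2 and 0.39 with Pcsk1. Chgb and Pcsk2 had r = 0.83, and Pcsk2 had no full CRE in its window. Whether r goes with a shared CRE was not tested. Vgf and Chga had r = 0.70. Cpe ran against Vgf (r = -0.89) and Chga (r = -0.82), and Pcsk1n against Scg3 (r = -0.82) and Scg2 (r = -0.76).

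**Figure D4:**
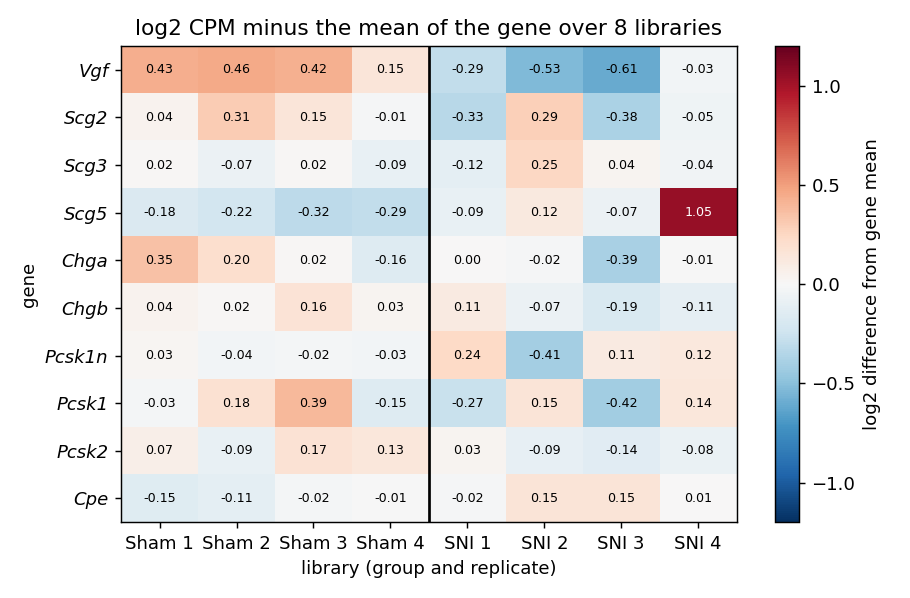
log2 CPM of each gene (rows) in each library (columns) minus the gene's mean over the 8 libraries, with the value printed in each cell. Vgf is positive in the 4 Sham and negative in the 4 SNI columns, SNI 4 holds the excess of Scg5 (1.05), and SNI 2 the low value of Pcsk1n (-0.41).

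The tested genes whose pattern over the 8 libraries was most like that of Vgf were Cyp26b1, a retinoic acid-degrading enzyme (r = 0.996), Actn1, an actin crosslinker (r = 0.988), Slc29a4, a monoamine transporter (r = 0.988), Med14, a Mediator subunit (r = 0.987), and Reep2, a membrane-shaping protein of the endoplasmic reticulum (r = 0.984). Their log2 fold changes were -0.99, -0.29, -0.62, -0.35 and -0.42. This r includes the difference between groups, so lower values in SNI follow in part from how these genes were picked. By deviations from the group means the closest were Hes5 (r = 0.990), Wdr82 (0.981), Cyp26b1 (0.980), Pkd2l2 (0.978) and Atg101 (0.973). Of these only Cyp26b1 was called.

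Beyond the members, 18 other precursor-processing enzymes were tested, and 1 fell: Pam, the enzyme that amidates the ends of many neuropeptides. Pam had 219, 237, 271 and 253 CPM in sham replicates 1 to 4 and 202, 199, 186 and 202 CPM in SNI replicates 1 to 4, with no overlap. Its log2 fold change was -0.31 ± 0.0817 (SE, edgeR adjusted p = 0.0376). That call ended without any 1 of 5 libraries (Sham replicates 2, 3 and 4, SNI replicates 3 and 4), with a highest adjusted p of 0.158 in edgeR without Sham replicate 3. Pcsk4, another convertase, and Ctsl, a protease that can cut prohormones, had 0.71 and 0.26 and did not pass (edgeR adjusted p = 0.0829 and 0.0947). Without SNI replicate 2 the count of enzymes called was 3. The share called was 5.56%, against 5.02% of all genes (2.87% lower), and it rests on Pam alone.

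Among 44 tested genes of dense-core vesicle formation, transport and release, 3 fell and 0 rose. That is 6.82% of the list, against 5.02% of all genes (2.87% lower). The list was chosen with earlier results of these data known, so this share is not independent evidence of an excess. Among them were Unc13a, a vesicle priming factor (-0.51), and Stx1a, a membrane fusion protein (-0.45), which also serve synaptic vesicles. Their edgeR adjusted p was 0.00256 and 0.0174. The call of Stx1a ended without Sham or SNI replicate 3, with a highest adjusted p of 0.0625. The list's median log2 fold change was -0.08. Without Sham replicate 3 or SNI replicate 3 the count became 1, and without SNI replicate 1 it became 7. Excitatory neuron markers were low in SNI replicates 2 and 3, as given above, and their part in these counts was not tested.

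Of 33 tested neuropeptide and secreted factor precursors, the cargo of these vesicles, 6 fell and 0 rose. That is 18.2% of the list, against 5.02% of all genes (2.87% lower). The list was chosen with earlier results of these data known, so this share is not independent evidence of an excess. The list's median log2 fold change was -0.06. Of these Cort, cortistatin, had a log2 fold change of -1.76 ± 0.21 (SE, edgeR adjusted p = 0.000585), and Adcyap1, which encodes PACAP, had -0.75 (edgeR adjusted p = 0.00145). The others were Crh, the stress peptide corticotropin-releasing hormone, Cck, cholecystokinin, Bdnf, a neurotrophin, and Apln, apelin. Crh had 9.09, 12.7, 9.67 and 10.9 CPM in sham replicates 1 to 4 and 5.89, 6.24, 5.32 and 5.18 CPM in SNI replicates 1 to 4. Every SNI value lay below every sham value, with a log2 fold change of -0.90 ± 0.151 (SE, edgeR adjusted p = 0.00434). Cck, by far the most counted of these, fell to 584 ± 22.5 CPM from a sham mean of 784 ± 36.6 CPM. Bdnf fell to 27.6 ± 6.03 CPM from 43.8 ± 4.66 CPM, and Apln to 17.8 ± 3.20 CPM from 25.4 ± 3.71 CPM (each SD over n = 4 libraries). The edgeR adjusted p was 0.00522 for Cck, 0.0139 for Bdnf and 0.0413 for Apln, whose call ended without Sham replicates 1, 3 or 4 or SNI replicates 1, 2 or 3 (highest adjusted p = 0.14). With the striatal marker value as a covariate the count of 6 became 1, which was Cort (log2 fold change -2.16, edgeR adjusted p = 0.0059). Some of these peptides belong to interneurons. GABAergic neuron markers summed to 1047 to 1355 CPM in sham and 958 to 1209 CPM in SNI, and 0 of 7 were called. Sst, Npy and Vip are in this marker list and in the precursor list as well. The part of interneurons in the peptide falls was not tested.

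Of receptors reported for the Vgf peptide TLQP-21, C3ar1 and C1qbp were looked at, and 0 of 2 passed. C3ar1, a complement receptor of microglia, had 1.63, 2.92, 1.58 and 2.52 CPM in sham replicates 1 to 4 and 1.73, 2.77, 5.86 and 2.41 CPM in SNI replicates 1 to 4. Only SNI replicate 3 stood outside the sham range, and that library also had the highest microglia marker value (0.48). The log2 fold change was 0.55 ± 0.351 (SE, edgeR adjusted p = 0.394), and -0.062 without SNI replicates 2 and 3. C1qbp, a multifunctional complement-binding protein, had a sham mean of 61.8 ± 4.75 CPM and an SNI mean of 56.0 ± 2.61 CPM (SD, n = 4 libraries each, edgeR adjusted p = 0.326).

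Among 30 tested activity-induced genes, the class to which Vgf and Scg2 belong, 3 rose, 3 fell and 24 did not pass. The share called was 20%, against 5.02% of all genes (2.15% higher and 2.87% lower). This list too was chosen with earlier results known, so its share is not independent evidence of an excess. Bdnf counts here and among the precursors. The list's median log2 fold change was 0.17. Those that fell were Nrn1 (-0.79), a secreted neurite growth protein, Nptx2 (-0.76), a pentraxin that clusters AMPA receptors, and Bdnf (-0.67). Those that rose were Sik1, a salt-inducible kinase (0.76), Cyr61, a matrix protein (0.82), and Gadd45b, a stress-response gene (0.39). The Vgf difference of -0.72 was close in size to those of Nptx2 and Nrn1. The edgeR adjusted p ran from 0.000562 (Nrn1) to 0.0444 (Gadd45b), and the Gadd45b call ended without any 1 of the 8 libraries (highest 0.131). Only 2 of the 30 were called without SNI replicates 2 and 3, and 0 with the striatal covariate.

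**Figure D5:**
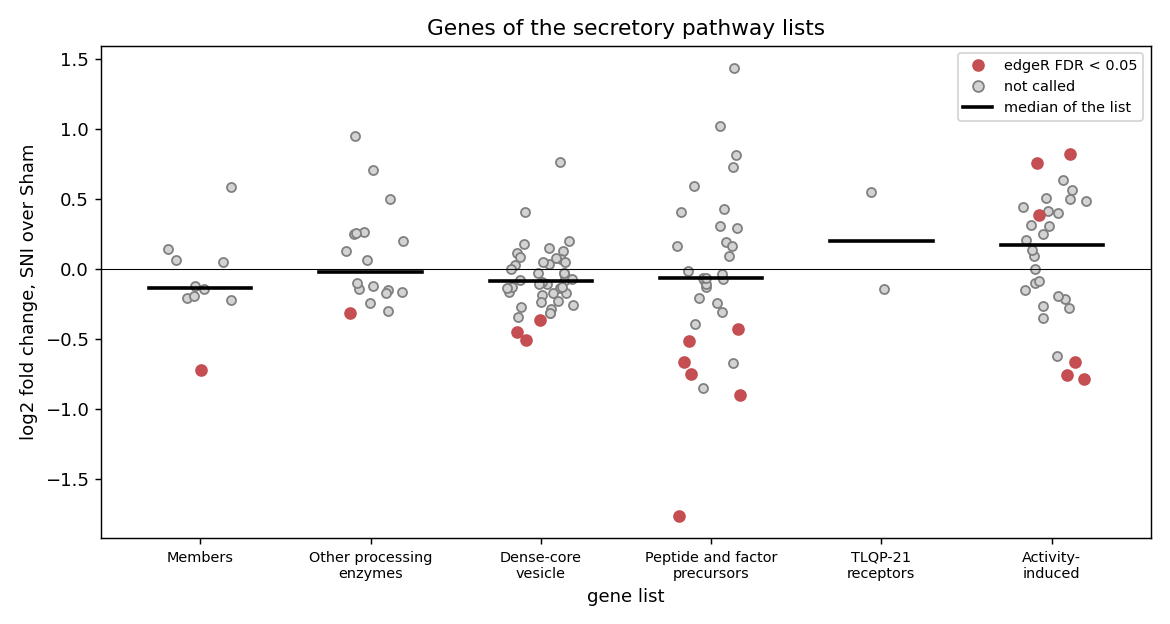
log2 fold change of SNI over Sham for each tested gene of 6 sets (columns), with red points at FDR 0.05, grey points not called and black lines for the medians. Called genes lie below 0 in the sets of members, enzymes, vesicle genes and precursors, and on both sides in the activity-induced set.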

How the data were processed

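The authors deposited raw read counts by gene symbol for 8 libraries. The submitters' processing notes name fastp, HISAT2, StringTie and the build GRCm38. Versions, the counting step, its annotation and its filter are not given in the sources used here. No count is below 1, so each listed gene was counted in every library. The libraries keep strand, per the labels' protocols. Library totals of 14735602 to 19602487 counts set the counting precision.

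Counts were tested with edgeR 4.0.16 (R 4.3.3): filterByExpr, TMM scaling, robust quasi-likelihood F-test, group as the only term, two-sided, Benjamini-Hochberg adjustment over 13911 genes. The standard error is the log2 fold change divided by the square root of F, and 95% intervals use 6 degrees of freedom. CPM are TMM-scaled, and log2 CPM use a prior count of 2. The biological coefficient of variation was 12.1%. Coordinates and exon lengths come from GENCODE M21, in which 14661 of 14765 symbols matched; promoter sequences come from RefSeq.

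The members and lists were chosen with earlier results of these data known. Named genes were all members, each list's called genes and its 3 of smallest p, and for each called member the 5 genes of highest r over libraries and over deviations; 1 gene that this rule takes is not reported here. Same-numbered libraries did not deviate together (r = -0.148 to -0.0056), so the numbers were not treated as pairing samples. Same-group libraries differed by far more than sampling noise (chi-square per degree of freedom 7.77 to 29.7). Alternatives were RLE, upper quartile and library-total scaling, other low-count filters, DESeq2 1.42.0, limma 3.58.1 (voom with quality weights), a replicate block, libraries left out, a striatal marker covariate and other thresholds.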

Additional observations from a re-analysis of the deposited data

Results flagged for a closer look

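In a group of 4, a library was taken as standing apart when its gap to the nearest other exceeded Dixon's 95% critical value for 4 values, as a share of the range. This held in 5 of 64 groups of 4 values, and chance alone flags about 1 in 20 groups. Scg5 in SNI replicate 4 had 540 CPM, against 246 to 284 CPM in the other SNI libraries. Vgf in Sham replicate 4 had 362 CPM, against 438 to 449 CPM in the other sham libraries. Chga in SNI replicate 3 had 138 CPM, against 180 to 182 CPM. Chgb in Sham replicate 3 had 481 CPM, against 435 to 441 CPM. Adcyap1, which encodes PACAP, had 24.8 CPM in SNI replicate 3, against 34.2 to 35.3 CPM.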

How the results depend on the processing

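Vgf kept its direction under all 21 alternatives and its call under 20, with log2 fold changes from -0.84 to -0.53; with the striatal covariate it was -0.75 and not called. The replicate block gave Vgf -0.73 (edgeR adjusted p = 0.0141), 0 processing enzymes and 10 activity-induced genes, so it ended the call of Pam, and the numbers are not known to pair samples. Genes called over the whole table were 698, and 1153 with DESeq2, 438 and 178 without SNI replicates 2 and 4 or 2 and 3, 9 with the striatal covariate, 155 at FDR 0.01, 1279 at FDR 0.1 and 258 to 858 with 1 library left out. Scaling by library totals moved the split from 299 higher and 399 lower to 446 higher and 276 lower.

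Members called lower were 2 without SNI replicates 2 and 4 (Scg2 joined) and 0 with the striatal covariate. Processing enzymes called were 0 with library totals, without SNI replicates 2 and 3, with the covariate and at FDR 0.01, 2 with DESeq2 and with limma voom, 3 at FDR 0.1, and 0 to 3 with 1 library left out. Vesicle genes called were 7 with DESeq2 and at FDR 0.1, 1 without either pair and at FDR 0.01, 0 with the covariate, and 1 to 7 with 1 library left out. With the covariate, precursors called were 1 and activity-induced genes 0; the latter were 10 with DESeq2, 2 without SNI replicates 2 and 3, and 11 at FDR 0.1.

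Directions turned for results that were never called. Scg3 ran from -0.010 (without SNI replicate 2) to 0.12 with 1 library left out, and had -0.0095 without SNI replicates 2 and 4, -0.049 without 2 and 3, and -0.020 with the covariate. Pcsk1n ran from -0.025 (without SNI replicate 1) to 0.17 with 1 SNI or sham library left out, and C3ar1 had -0.062 without SNI replicates 2 and 3. The Pcsk1 to Pcsk2 difference ran from -0.16 to 0.033 with 1 library left out, above 0 without Sham replicates 2 or 3 or SNI replicates 1 or 3. Apart from what the alternatives' fewer samples or terms imply, the cause was not tested.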
